A study of Mus musculus with 10 samples.

Results

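The regions described here are stretches of open chromatin that were called as peaks in every library of a mouse differentiation series. Chromatin was profiled by ATAC-seq, in which a transposase cuts accessible DNA and inserts sequencing adapters. Peaks of the 10 libraries were merged into 246799 regions, and 246795 of these lay off the mitochondrial chromosome (chrM). A region was kept if it overlapped a peak of each of the 10 libraries. This held for 32310 regions, 13.1% of those off chrM. The peak calls therefore chose the regions, and their height and width are given as a description. As each has a peak in every library, opened and closed below mean higher and lower counts, not a peak gained or lost.

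The cells were of the mouse embryonic stem cell line ES-Bruce4 (strain C57BL/6), wild type, and all groups shared one line and one protocol. They were kept on mouse embryo fibroblasts, which were depleted once before the start, and differentiated toward neuromesodermal progenitors in 10 ng/ml bFgf, with 5 µM CHIR99021, an activator of Wnt signalling, from day 2 and a split on day 3. Cells were taken at day 2, labelled as epiblast stem cells, and at days 3, 6 and 7, labelled as neuromesodermal progenitors. A further group was taken at day 7 after 24 h in 50 ng/ml human Gdf11, a TGF-beta family ligand, which was added on day 6. Each of the 5 groups had 2 libraries of 50000 cells. Nothing in the labels ties the paired libraries to different cultures. The p-values below therefore judge differences between groups against the spread between libraries of a group, which may be technical only.

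Accessible chromatin in any cell falls into promoters and distal elements. Promoters rich in CpG dinucleotides, which serve widely used genes, are open in most cell types, with nucleosomes kept away from the start site by factors such as NRF1, the ETS family member GABP, SP1, NF-Y and ZNF143. Distal elements are bound by lineage factors and tend to change from one cell state to the next, whereas sites of CTCF, the insulator protein, are open in many cell types. In neuromesodermal progenitors, Wnt and Fgf signals maintain Cdx and Hox genes, and Gdf11 acts in the switch from trunk to tail.

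To show what these regions look like at promoters, 4 windows that lay wholly inside a region called in all 10 libraries are printed 5′ to 3′, each from 250 bases before to 50 bases after the start (RefSeq, build GRCm38.p6, which is mm10). Capitals mark the motif letters searched on both strands: CCGGAAG (ETS), GGGCGGG (SP/KLF), CCAATNA (NF-Y) and ATGCAAAT (octamer), where N is any base. The NRF1 letters are GCGCA, any base and GCGC, and the ZNF143 letters are ACTACAA, any base and TCC. In each window only the motifs named for it are capitalised. The first window belongs to one of the 5 least variable regions described below (chr10:121739680-121739979, plus strand; NRF1, ETS and SP/KLF letters).
BC048403: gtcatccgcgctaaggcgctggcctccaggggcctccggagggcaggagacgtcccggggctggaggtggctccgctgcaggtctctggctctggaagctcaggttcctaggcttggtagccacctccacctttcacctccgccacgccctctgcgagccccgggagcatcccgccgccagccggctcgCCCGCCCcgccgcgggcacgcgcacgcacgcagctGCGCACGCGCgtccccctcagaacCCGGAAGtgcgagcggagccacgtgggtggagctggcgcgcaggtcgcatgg
The second belongs to Snrnp70, which encodes a protein of the U1 splicing particle and whose region opened at day 3 (chr7:45395693-45395992, minus strand; NRF1 letters in 2 places, each matching on both strands).
Snrnp70: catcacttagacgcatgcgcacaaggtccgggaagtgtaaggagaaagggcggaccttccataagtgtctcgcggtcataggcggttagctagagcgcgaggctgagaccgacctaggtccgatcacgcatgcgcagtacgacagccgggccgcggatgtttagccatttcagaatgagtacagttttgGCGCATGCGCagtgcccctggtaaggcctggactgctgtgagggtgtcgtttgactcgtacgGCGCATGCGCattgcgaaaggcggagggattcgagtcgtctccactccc
The third belongs to Sf3b2, a subunit of the U2 splicing particle (chr19:5295408-5295707, minus strand; ZNF143, ETS and NF-Y letters).
Sf3b2: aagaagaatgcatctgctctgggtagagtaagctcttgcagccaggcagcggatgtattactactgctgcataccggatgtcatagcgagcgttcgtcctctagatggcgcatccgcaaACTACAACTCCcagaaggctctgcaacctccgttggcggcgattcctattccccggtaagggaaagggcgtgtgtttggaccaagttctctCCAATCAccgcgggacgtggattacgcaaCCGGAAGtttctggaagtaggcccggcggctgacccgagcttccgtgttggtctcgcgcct
The fourth belongs to Zfp42, the stem cell gene also called Rex1, whose region lost accessibility after day 3 (chr8:43306960-43307259, minus strand; octamer, NF-Y and, in 2 places, SP/KLF letters).
Zfp42: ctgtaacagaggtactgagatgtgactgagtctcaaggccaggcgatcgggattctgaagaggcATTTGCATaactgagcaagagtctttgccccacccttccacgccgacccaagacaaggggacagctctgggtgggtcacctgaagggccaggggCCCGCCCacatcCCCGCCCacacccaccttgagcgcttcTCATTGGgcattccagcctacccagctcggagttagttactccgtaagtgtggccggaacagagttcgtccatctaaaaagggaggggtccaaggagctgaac
The ratio of observed to expected CpG was 0.85 in the BC048403 window, 1.10 in Snrnp70, 0.97 in Sf3b2 and 0.44 in Zfp42. A match is a description of letters and not evidence of a bound factor.

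Totals ran from 7150334 to 12335735 counts per library, of which 9.25% to 13.4% lay on chrM. Each library had between 80504 and 118603 peaks, and between 37085 and 37944 of them fell in regions called everywhere. These peaks were 31.7% to 46.5% of a library's peaks. For each region the highest value of its peaks in a library was taken. The median fold enrichment from the authors' caller was then 7.01 to 10.6 per library, against 4.52 to 5.66 for the other regions with a peak. The median -log10 q was 14.6 to 24.9, against 5.23 to 7.09.

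The regions called everywhere were few but held most of the signal. They covered 28.0% of the bases in merged regions and took 63.0% of all counts off chrM. The 97534 regions called in a single library took 6.08% of the counts, and the 8676 called in 9 libraries took 4.99%. The number of regions fell from 1 library to 7 libraries, with 8352 regions, and rose again at 10. Median width was 452.5 bp, against 184 bp for all merged regions and 305 bp for those called in 9. The median of the mean CPM, a region's counts scaled to a common total of counts off chrM, was 11.7, against 1.30 for all regions and 4.66 for those called in 9. Per kilobase the medians were 26.0 and 6.90 CPM.

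**Figure D1:**
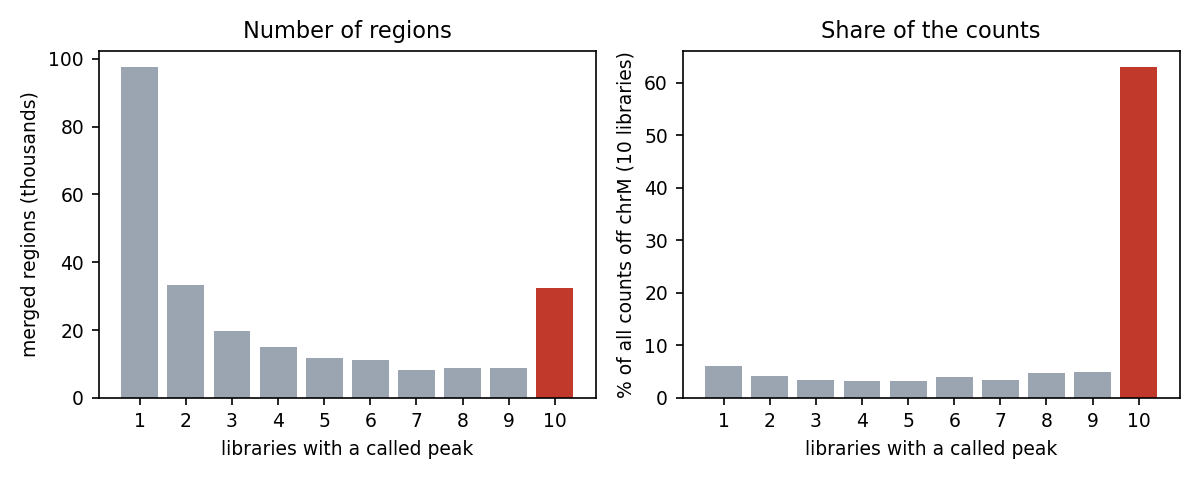
Merged regions off chrM by the number of libraries in which a peak was called, as number of regions (left) and as percent of the counts of all 10 libraries (right). The 32310 regions called in all 10 libraries (red) hold 63.0% of the counts.

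The edge of the set was uneven across libraries. Of the 8676 regions called in 9 libraries, the library without a call was day 6, replicate 2 in 2030 cases (23.4%), the library with the fewest peaks, and day 7, replicate 1 in 176, a library with 117023 peaks. In the library without a call these regions still had a median of 2.18 CPM, and their mean over 10 libraries had a median of 4.66 CPM. Just inside the rule, the 100 regions with the weakest call in their worst library had a median of 5.36 CPM. The lowest -log10 q of a region over its 10 libraries had a median of 9.67 and went down to 1.61. Every region called everywhere had at least 10 counts in each library.

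Regions called everywhere lay at the ends of genes more often than the other regions did. Of 32310 regions, 12495 (38.7%) were within 1 kb of an end of a protein-coding gene, against 13.0% of the regions called in 9 libraries, 8.24% of those called in 2 to 8, 6.51% of those called in 1 and 11.7% of all regions. A further 9691 (30.0%) were inside a gene more than 1 kb from its ends, and 10086 (31.2%) lay outside genes. The ends in question were mostly starts. Among 14682 genes of at least 3 kb with a start in the RefSeq table, 8936 (60.9%) had such a region within 1 kb of the start and 832 (5.67%) within 1 kb of the other end. Where the other end was more than 2 kb from any listed start, the share was 3.44% of 13836.

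Many were centred on a start. On chromosomes with listed starts, 30.8% of 31262 regions had their centre within 500 bp of one, against 6.26% of those called in 9 libraries and 2.38% of those called in 1. Chromosome 18, with 1010 of the regions called everywhere, and the contigs, with 38, had no listed starts and are left out. The median offset of these centres from the start was -1 bp, with 50.2% upstream. The 100 bp just before the start held 8.89% of all region centres and the 100 bp just after it 8.33%.

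**Figure D2:**
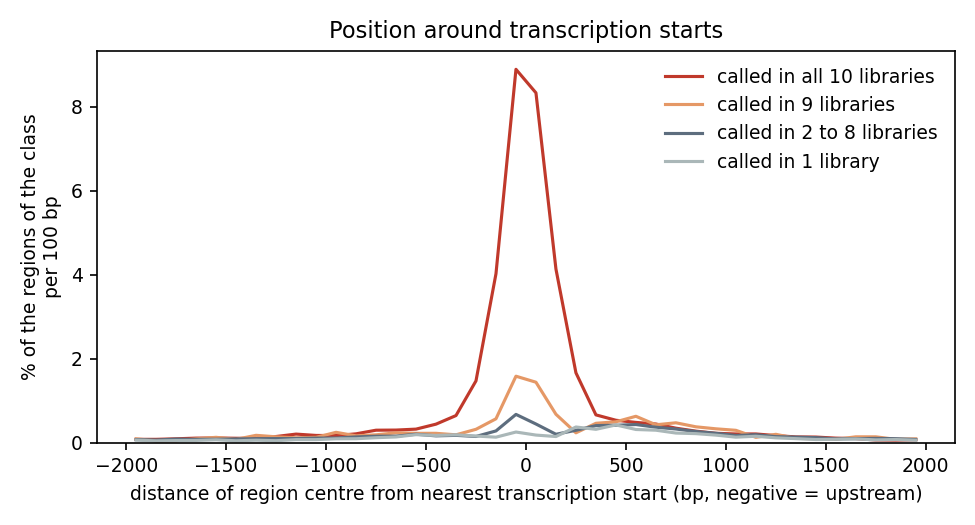
Distance of a region's centre from the nearest listed transcription start, in bp along the direction of transcription, against the percent of the regions of a class per 100 bp. The line for regions called in all 10 libraries peaks at 8.89% just before the start, and close to the start the lines of the other classes stay far below it. From 700 to 1000 bp downstream the line for regions called in 9 libraries is above it.

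At the other extreme, 3738 regions (11.6%) lay more than 50 kb from any protein-coding gene and 1344 more than 200 kb from one. The most remote was chr18:28077742-28078315, 2187 kb from Pik3c3, a lipid kinase gene of autophagy. It read 16.8 and 14.7 CPM at day 2, 13.3 and 11.5 at day 3, 11.2 and 8.47 at day 6, 9.48 and 12.2 at day 7, and 15.9 and 22.9 with Gdf11 (CPM on library sizes that include chrM, scaled by TMM, as for every single region below). Another, at chr1:102628140-102628371 and 2138 kb from Cntnap5b, read between 44.4 and 67.4 CPM in all libraries. The X chromosome carried 893 of the regions, the Y chromosome 18 and unplaced or unlocalised contigs 38.

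Promoter sequence differed between windows inside and outside these regions. No windows were listed on chromosome 18, so the shares of promoters, CpG and motifs leave it out. Of 21263 promoter windows of 300 bases listed by RefSeq, 11125 (52.3%) overlapped a region called everywhere, 12.7% a region called in 1 to 9 libraries, and 35.0% no region. The median observed to expected CpG ratio was 0.79, 0.47 and 0.18 in these 3 classes, and median GC was 62.3%, 57.7% and 46.3%. Read the other way, 2.70% of 4700 windows with a ratio up to 0.2 overlapped such a region, 16.8% between 0.2 and 0.4, 56.7% between 0.4 and 0.6, 82.0% between 0.6 and 0.8, 89.7% between 0.8 and 1 and 92.5% of 1717 windows above 1. CpG and GC content move together across these windows, and their separate parts were not tested.

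**Figure D3:**
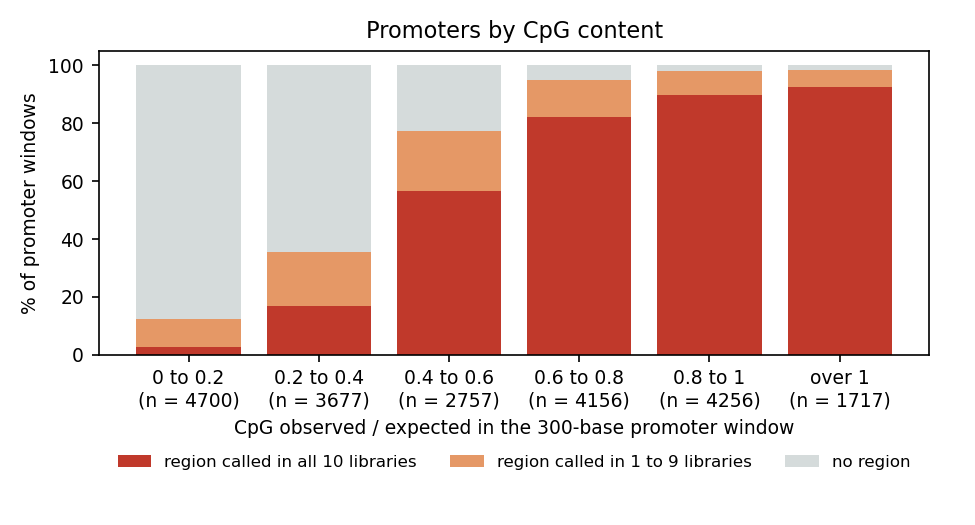
RefSeq promoter windows of 300 bases grouped by observed to expected CpG ratio (horizontal axis, number of windows under each bar), with the percent that overlap a region called in all 10 libraries (red), a region called in 1 to 9 (orange) or none (grey). The red share goes from 2.70% to 92.5%.

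The letters of several promoter factors were more frequent in windows inside the regions. The NRF1 letters were in 11.5% of windows in regions called everywhere, 1.89% of those in regions called in 1 to 9 libraries and 0.40% of those in none, against 6.38% of all 21263 windows. The ETS letters were in 19.3%, 6.15% and 1.94% (11.6% of all), and the SP/KLF letters in 52.3%, 35.1% and 5.83% (33.9% of all). Of 311 windows with the ZNF143 letters, 297 lay in regions called everywhere, which is 2.67% of those windows against 0.13% of windows with no region (1.46% of all). The TATA box letters (TATAAAA) went the other way, in 2.14%, 3.48% and 9.95% (5.04% of all), as did those of AP-1 (TGANTCA), in 3.70%, 8.82% and 11.2% (6.99% of all). The NF-Y letters were in 18.7%, 11.6% and 15.0% (16.5% of all). The letters of the CTCF core motif were in 3.00%, 2.41% and 1.33% (2.34% of all). Both strands were searched, and a base shared by 2 motifs counted for both. The part of GC content in these shares was not tested.

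Most genes of basic cell functions carried such a region at an end. This was so for 74 of 76 ribosomal protein genes, 24 of 24 translation factors, 29 of 29 genes of splicing and RNA polymerase II, 30 of 31 proteasome genes, 21 of 24 of DNA replication, 20 of 22 of oxidative phosphorylation, 16 of 20 of cohesin, CTCF and promoter factors, and 20 of 23 common reference genes. Among all 21887 protein-coding genes the count was 12211 (55.8%). Genes of adult tissues, such as liver, muscle, eye and skin, had one in 6 of 30 cases. Among regulators of the embryo the counts were 13 of 23 pluripotency and epiblast genes, 14 of 19 caudal and neuromesodermal, 13 of 20 paraxial mesoderm, 17 of 20 neural and spinal cord, 20 of 39 Hox, 6 of 15 endoderm genes and 5 of 15 fibroblast genes. For the lateral plate, heart and blood the count was 4 of 15, and for the neural crest 5 of 10. The pluripotency genes Pou5f1 and Nanog and the caudal genes T, Fgf8, Wnt3a and Cyp26a1 had none, although 22 of 23 pluripotency and 19 of 19 caudal genes had a region called in at least 1 library. Accessibility at a gene end is not expression of the gene, and in a bulk sample fewer cells with an open region and less opening per cell cannot be told apart.

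None of the 10 highest regions lay within 1 kb of a protein-coding gene end. The top region, chr17:39843028-39846537, is 3510 bp wide, the widest of the set, and overlaps Rn18s-rs5, a pseudogene of 18S ribosomal RNA. It read 6666 and 9008 CPM at day 2, 7535 and 10059 at day 3, 6844 and 8704 at day 6, 6356 and 7824 at day 7, and 5650 and 7265 with Gdf11. In each group replicate 2 was the higher. Its neighbours chr17:39847474-39848811 and chr17:39846585-39847034 overlap the same pseudogene, with means of 3170 and 658 CPM. Next came chr2:98666229-98667343 and chr2:98662224-98662978, more than 1000 kb from the nearest protein-coding gene, with means of 1642 and 908 CPM. One of the 10 highest lay on the contig Un_JH584304. These 10 regions took 2.26% to 3.57% of the counts in regions called everywhere, depending on the library. Ribosomal RNA genes exist in many copies, and how reads matching several places were treated is not given in the sources used here.

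Of the regions called everywhere, some hardly differed between the 10 libraries. The 5 with the smallest standard deviation of log2 CPM among those above the median level, between 0.0452 and 0.0714, were at the ends of Zfp960, BC048403, Ankef1, Polr3gl and Radil. The region of BC048403 (chr10:121739528-121740062), whose promoter is printed above, read 19.2 and 20.2 CPM at day 2, 18.9 and 18.5 at day 3, 19.5 and 18.2 at day 6, 20.4 and 18.1 at day 7, and 19.4 and 19.0 with Gdf11. Its highest library was 1.13 times its lowest. That of Zfp960 (chr17:17063614-17064179), a zinc finger gene, stayed between 41.5 and 45.9 CPM. That of Polr3gl, a subunit of RNA polymerase III, stayed between 19.4 and 23.5 CPM. These were chosen as the least variable and no test is attached to them.

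The accessibility of many others differed between groups. In edgeR's quasi-likelihood F test over the 5 groups with Benjamini-Hochberg adjustment over 173175 tested regions, 14228 of the 32310 regions (44.0%) passed an adjusted p of 0.05, against 43.8% of all tested regions, a share near the background. All 32310 passed the filter on low counts. Of the 14228, 5241 were highest at day 2, 2364 at day 3, 839 at day 6, 5055 at day 7 and 729 with Gdf11. The lowest group was day 2 for 5060 of them and day 7 with Gdf11 for 3274. These splits were not counted over all tested regions or with other scalings, so they are not read as a trait of these regions. The highest and lowest group mean differed by a median of 0.65 log2 units, against 1.18 over all tested regions. Group means differed by 2-fold or more in 7888 regions (24.4%) and by 4-fold or more in 1354 (4.19%), also without a count over all tested regions. The median level of the 32310 regions was 10.7 CPM against 1.91 over all tested regions, on TMM-scaled library sizes that include chrM. The part of this depth in the sizes and shares was not tested. Within the set, 4834 of the 12495 regions at gene ends passed (38.7%), 4457 of the 9691 inside genes (46.0%) and 4916 of the 10086 outside genes (48.7%).

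The 4 consecutive comparisons divided this up. No comparison was passed by 23422 regions (72.5%), a single one by 6456 (20.0%), and all 4 by 131 (0.41%). Over all tested regions the shares were 73.9%, 20.3% and 0.23%. Comparisons that follow each other share a group, so their changes are not independent.

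From day 2 to day 3, 2395 regions opened and 2184 closed, together 14.2%, against 13.2% of all tested regions. CHIR99021 was added on day 2, and the labels do not say whether the day 2 cells were taken before or after it. The balance depends on the settings: scaling on the other regions gave 1895 that opened and 2265 that closed, no filter 2169 and 2253, and DESeq2 1328 and 1601. Without replicate 1 of day 2 the total was 2843. Openings made up 7.41% of the regions called everywhere (background 8.84%) and closings 6.76% (background 4.34%). At gene ends 800 opened and 301 closed, inside genes 719 and 865, and outside genes 868 and 1017. Of the regions that passed, 42.2% changed by 2-fold or more, against 86.1% of all tested regions that passed. A peak in each library was required, and the median level was 10.7 CPM against 1.91 over all tested regions. The part of the rule and of depth in this contrast was not tested. The log2 fold change had a median of 0.02 over the regions called everywhere and 0.07 over all tested regions.

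Openings were ranked among regions that passed, lay above the median level of the set and had no overlap between the groups. The 5 largest of these all lay more than 10 kb from a gene end. A region 307.5 kb from Cbln2, a synapse organiser gene (chr18:87025773-87026242), read 1.30 and 2.83 CPM at day 2 and 27.7 and 36.7 at day 3. Its log2 fold change was 3.99 ± 0.26 (SE, adjusted p = 1.6e-18). A region 70.8 kb from Msx1, a homeobox gene of the BMP and Wnt response (chr5:37895356-37896252), went from 4.86 and 4.05 to 48.9 and 44.8 CPM and later reached 83.0 and 72.1 at day 7. Regions in Rad51b and Tenm3 and one near Mex3b rose by 3.38 to 3.48 log2 units. That the groups did not overlap follows from this choice, which was also made for the regions that fell. On the falling side, a region 9.2 kb from Cst3, a secreted protease inhibitor gene (chr2:148884695-148885155), went from 20.5 and 22.7 to 3.68 and 2.83 CPM, a log2 fold change of -2.69 ± 0.26 (adjusted p = 6.4e-12). A region in Vps13d went from 52.9 and 47.8 to 8.42 and 8.50 CPM. A region 152.5 kb from Rgma, a guidance and BMP co-receptor gene, went from 40.8 and 43.7 to 9.91 and 8.06 CPM.

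Among genes of the caudal list, 8 of 14 regions at gene ends opened at day 3 and none closed. Over all 12211 genes with such a region the counts were 863 and 262. For a gene with several regions at its ends the highest was used. Sp5, a Wnt target transcription factor, read 11.4 and 16.7 CPM at day 2, 60.4 and 60.7 at day 3, 36.3 and 44.5 at day 6, 50.9 and 40.5 at day 7, and 33.3 and 38.9 with Gdf11. Its log2 fold change at day 3 was 2.11 ± 0.18 (adjusted p = 5.5e-14). The caudal homeobox genes Cdx1 and Cdx2 rose by 2.19 ± 0.21 and 1.84 ± 0.20 log2 units. Cdx2 went from 12.7 and 11.2 to 40.8 and 45.5 CPM. Sp8, a zinc finger factor of limb and tail, rose by 1.10 and Nkx1-2, a marker of the caudal epiblast, by 1.43. For each of these 5 genes both day 3 libraries were above both day 2 libraries. This is a description, since the genes were named by level or p. Such a count was not made over all genes.

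Of 20 Hox genes with such a region, 6 rose at day 3 and none fell. Hoxb7 and Hoxb8 share a region, as do Hoxa5 and Hoxa6, so the 20 genes stand for fewer regions. The region of Hoxc5 (chr15:103013685-103014889) read 7.02 and 7.96 CPM at day 2, 33.3 and 34.2 at day 3, 45.4 and 51.8 at day 6, 77.6 and 89.6 at day 7, and 40.5 and 45.6 with Gdf11. It was lowest at day 2 and highest at day 7, with no overlap between these and any other group. Hoxa9 and Hoxb9 rose by 2.05 and 2.15 log2 units at day 3. The shared region of Hoxb7 and Hoxb8 rose by 1.40.

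Among widely used genes, 9 of 74 ribosomal protein genes, 8 of 24 translation factors and 6 of 29 genes of splicing and RNA polymerase II rose and none fell. So did 3 of 30 proteasome genes, 4 of 20 reference genes, 2 of 16 of cohesin, CTCF and promoter factors and 1 of 20 of oxidative phosphorylation, but none of 21 of DNA replication passed. Of 13 paraxial mesoderm genes 2 fell and none rose. Over all 12211 genes with such a region 863 rose and 262 fell, and at that rate lists of this size would hold few or no falls. The medians of the first 3 lists were 0.20, 0.30 and 0.29 log2 units, against 0.09 for all genes with such a region. Snrnp70 read 27.7 and 32.8 CPM at day 2, 46.5 and 57.6 at day 3, 38.2 and 43.6 at day 6, 51.5 and 47.1 at day 7, and 34.3 and 42.4 with Gdf11. It rose by 0.78 ± 0.16 log2 units (adjusted p = 3.4e-04). Eif5a, a factor of peptide elongation, rose by 0.72, U2af2, which reads the 3′ splice site, by 0.67, Rps12 by 0.94, and the promoter factor genes Nfya and Gabpa by 0.57 and 0.60. With scaling factors from the other regions the first 3 counts were 5, 6 and 3. With library size alone they were 10, 8 and 7, the last beside 1 that fell. The NRF1 letters shown in the Snrnp70 window were in 24.2% of 811 promoter windows whose region opened at day 3 and in 1.72% of 233 whose region closed, against 11.5% of all windows in regions called everywhere. Where the region opened at day 6 the share was 4.79%. The CpG ratio was above 0.6 in 87.9% of the windows that opened at day 3 and in 47.6% of those that closed. The part of CpG content was not tested. This motif was picked from 13 after its shares were seen.

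**Figure D4:**
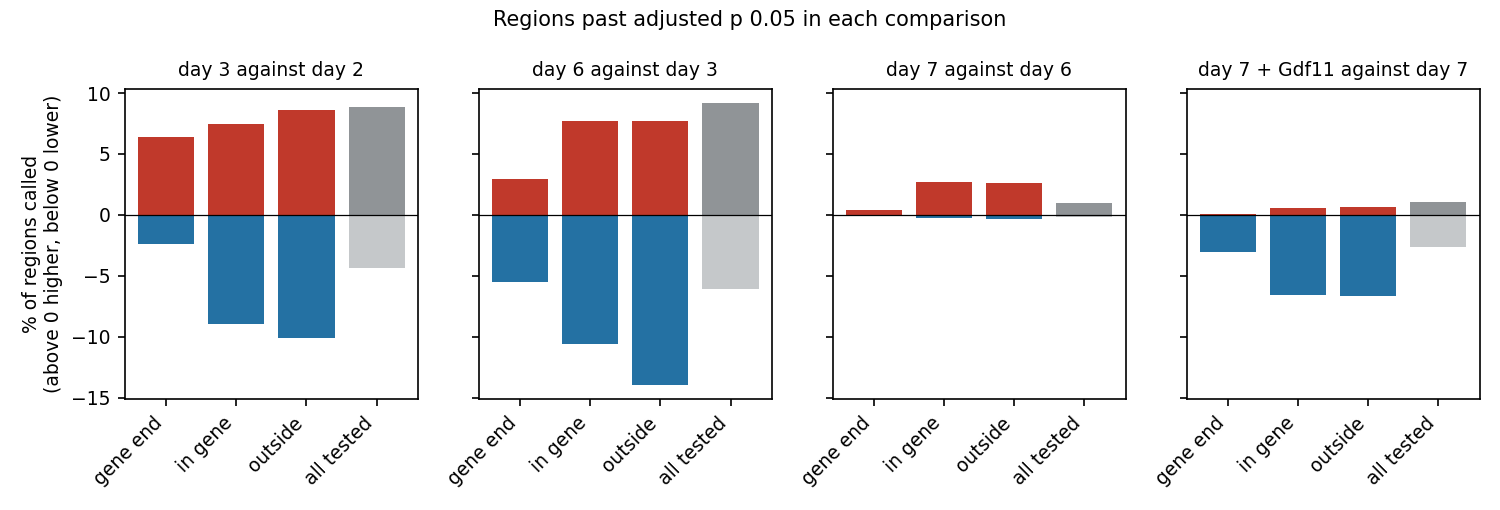
Percent of regions past an adjusted p of 0.05 (edgeR) in each comparison, with those higher above 0 and those lower below 0, for regions called in all 10 libraries at gene ends, inside genes and outside genes (coloured) and for all 173175 tested regions (grey). In each comparison and direction, the bars of regions at gene ends are shorter than those of the regions inside and outside genes.

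From day 3 to day 6, 1889 regions opened and 3133 closed, together 15.5%, against 15.2% of all tested regions. Openings were 5.85% (background 9.17%) and closings 9.70% (background 6.06%). The total was 2779 without replicate 1 of day 6. Outside genes 774 opened and 1407 closed. A region in Tmtc2, a gene of protein mannosylation (chr10:105200008-105200502), read 3.77 and 3.43 CPM at day 3 and 38.7 and 29.0 at day 6, a log2 fold change of 3.22 ± 0.23 (adjusted p = 3.1e-16). A region 274.7 kb from Acvr2a, an activin receptor gene (chr2:48538617-48539403), went from 9.12 and 7.76 to 65.5 and 54.9 CPM. Regions near Cdh10 and Fam20b and one in Gpr55 rose by 2.52 to 2.61 log2 units. The regions near Zfp36l1, in Mtss1 and in Dydc2 fell by 2.34, 2.13 and 2.12 log2 units. That near Zfp36l1, an RNA-decay factor gene, had opened before, from 16.2 and 13.9 CPM at day 2 to 49.5 and 50.7 at day 3, and was back to 9.81 and 10.0 at day 6. Opening at day 3 followed by closing at day 6 was seen in 436 regions (1.35%, against 1.19% of all tested regions) and opening at both steps in 330 (1.02% against 1.72%). Closing at both was seen in 508 (1.57% against 0.60%) and closing then opening in 206 (0.64% against 0.31%). The steps share the day 3 libraries.

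The pluripotency list had 3 of 13 regions that fell at day 6 and none that rose. Zfp42 read 31.7 and 32.9 CPM at day 2, 29.2 and 39.2 at day 3, 9.73 and 10.3 at day 6, 13.0 and 7.60 at day 7, and 12.6 and 13.3 with Gdf11. Its log2 fold change at day 6 was -1.77 ± 0.21 (adjusted p = 3.2e-09), and its day 2 and day 3 libraries were all above those of the later groups. The caudal list had 5 of 14 that fell and none that rose. Wnt8a and Fgf17, signals of the early primitive streak and tail bud, changed by -2.01 ± 0.22 and -1.47 ± 0.19 log2 units. In the endoderm list, 2 of 6 fell. Foxa2, an endoderm and floor plate factor, changed by -1.19 ± 0.22 and Epcam, an epithelial adhesion gene, by -1.60 ± 0.25. Of 17 neural genes 2 rose and 1 fell, and Hes5, a Notch target of neural progenitors, went from 9.21 and 15.1 to 22.7 and 26.6 CPM, by 1.05 ± 0.22. Of 20 Hox genes 3 rose and 3 fell. Over all genes with such a region the counts were 357 higher and 632 lower. Of the fibroblast list, 1 of 5 fell and none rose. Of the lateral plate, heart and blood list, none of 4 passed.

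**Figure D5:**
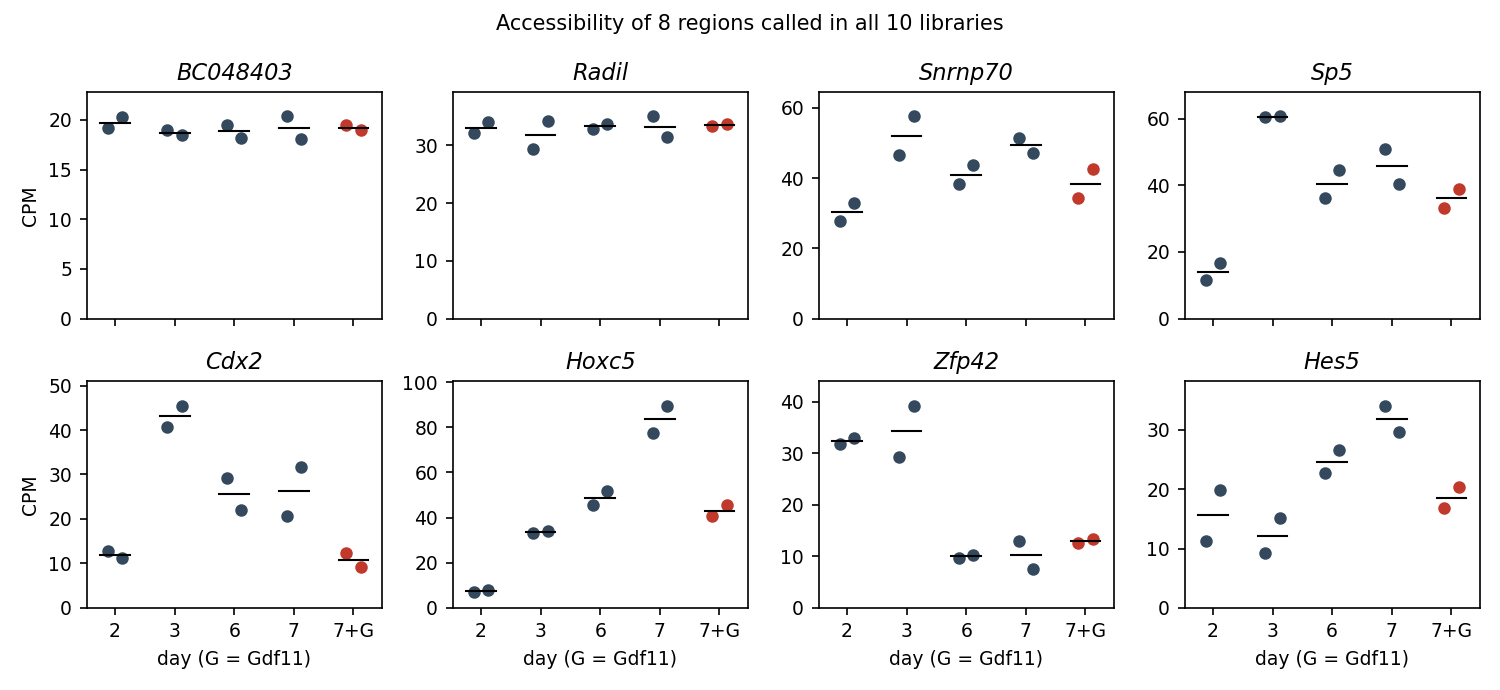
TMM-scaled CPM of 8 regions in each library (points) with the mean of the 2 libraries of a group (line), by day, with day 7 plus Gdf11 in red. BC048403 and Radil stay level, Snrnp70, Sp5, Cdx2 and Hoxc5 are lowest or near lowest at day 2, and Zfp42 drops and Hes5 rises between day 3 and day 6.

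Between day 6 and day 7 few regions changed: 573 opened and 61 closed, together 1.96%, against 1.18% of all tested regions. Openings were 1.77% (background 0.975%) and closings 0.189% (background 0.206%). At gene ends 47 opened and 6 closed. The median log2 fold change was 0.11 over the regions called everywhere and -0.02 over all tested regions. With library size alone in place of TMM the medians were 0.00 and -0.13 and the counts 357 opened and 114 closed, so the split depends on the scaling. The total was 191 when day 6, replicate 2 was left out. It was 374 without the other day 6 library, and 198 if day 7, replicate 2 was omitted. A region in Kif1b, a motor protein gene (chr4:149255198-149255858), went from 10.1 and 5.93 to 25.7 and 31.3 CPM, by 1.78 ± 0.23 log2 units (adjusted p = 2.2e-06). Regions in Iqch and Emid1 and near Tns1 and Irx4 rose by 1.56 to 1.68. With Gdf11 against day 7, these 5 fell by 0.91 to 1.29 log2 units, in a comparison that shares the day 7 libraries. They were chosen by their rise to day 7, which favours a fall from it, so the direction is a description only. A region 0.5 kb from Celsr3, a planar polarity gene, went from 11.3 and 11.7 to 4.37 and 5.63 CPM, by -1.22 ± 0.24, and without day 7, replicate 1 its adjusted p was 0.119. The rise of Hoxc5, 0.78 ± 0.15 (adjusted p = 0.0012), had an adjusted p of 0.0686 without day 6, replicate 1 and 0.0595 without day 7, replicate 2.

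With Gdf11, against day 7 without it, 130 regions opened and 1692 closed, together 5.64%, against 3.74% of all tested regions. The 130 and the 1692 regions were called as peaks in each library by the rule. Openings were 0.402% (background 1.09%) and closings 5.24% (background 2.65%). The median log2 fold change was -0.17 over the regions called everywhere and 0.03 over all tested regions. The split depends on the scaling: library size alone moved the median of all tested regions by 0.17 log2 units, put that of the regions called everywhere at 0.00 and gave 351 that opened and 860 that closed. Scaling on the other regions gave 78 and 2410. The count was 775 without day 7, replicate 2 and 819 without day 7 with Gdf11, replicate 1.

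Single regions with large changes in both directions passed under each scaling tried. A region 24.6 kb from Pde5a, a phosphodiesterase gene (chr3:122704107-122704594), read 22.2 and 31.2 CPM at day 7 and 4.97 and 7.89 with Gdf11, a log2 fold change of -2.06 ± 0.25 (adjusted p = 6.0e-08). A region 113.6 kb from Fgfr2, an Fgf receptor gene (chr7:130047791-130048894), read 13.9 and 10.4 CPM at day 2, 19.0 and 16.6 at day 3, 41.5 and 43.9 at day 6, 57.0 and 67.2 at day 7, and 13.1 and 21.8 with Gdf11. That its libraries with Gdf11 were below both of day 7 was a condition of naming it. Its change with Gdf11 was -1.84 ± 0.19. Regions near Usp25 and Gm29958 and one in Rad51b, other than that opened at day 3, fell by 1.78 to 1.97 log2 units. On the rising side a region in Prrc1 (chr18:57376181-57376655) went from 7.81 and 8.52 to 21.7 and 21.4 CPM, by 1.41 ± 0.23 (adjusted p = 3.6e-05). Regions in Akap6 and Pard3b and near Pfkfb3 rose by 1.33 to 1.40. That of Pard3b, a polarity gene, read 34.3 and 29.2 CPM at day 3, 6.69 and 9.43 at day 7, and 20.7 and 19.0 with Gdf11.

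Of 20 Hox genes with such a region, 9 were lower with Gdf11 and none higher, and 3 were lower when scaled by library size alone. Hoxb1 read 18.2 and 26.2 CPM at day 7 and 9.24 and 9.78 with Gdf11, by -1.21 ± 0.22 (adjusted p = 1.7e-04). Hoxb5 went from 17.3 and 22.2 to 8.28 and 8.67 CPM, by -1.21 ± 0.23, and Hoxc5 changed by -0.96 ± 0.15. Chosen after their values were seen, Hoxc10, Hoxa10 and Hoxa13, of the posterior end of the clusters, did not pass: Hoxa10 read 13.9 and 15.5 CPM without and 12.4 and 15.3 with Gdf11. In the caudal list 4 of 14 were lower, 2 by library size alone. Cdx2 went from 20.7 and 31.8 to 12.4 and 9.11 CPM, by -1.26 ± 0.21 (adjusted p = 3.0e-05). Over all genes with such a region, 407 were lower and 8 higher. Of 74 ribosomal protein genes 6 were lower, against 0 by library size alone and 11 with scaling on the other regions. Sf3b2, whose window is printed above, read 50.9 and 54.3 CPM at day 7 and 34.3 and 38.8 with Gdf11, by -0.53 ± 0.15 (adjusted p = 0.034). By library size alone its adjusted p was 0.152. Leaving out either day 7 library gave 0.102 (replicate 1) or 0.234 (replicate 2), and leaving out replicate 1 of the Gdf11 group gave 0.268. The NF-Y letters, also shown there, were in 34.6% of 358 promoter windows whose region closed with Gdf11, against 18.7% of all windows in regions called everywhere, and the ZNF143 letters in 5.31% against 2.67%. The NF-Y share was 26.2% where the region closed at day 3 and 23.2% where it closed at day 6. These motifs were picked from 13 after their shares were seen.

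The 5 widest ranges of group means were in Tmtc2 and Erc2 and near Chd7, Cdh7 and Ralgps2, all more than 10 kb from a gene end. A region 137.4 kb from Chd7, a chromatin remodeller gene (chr4:9005893-9006648), read 2.81 and 4.72 CPM at day 2, 6.58 and 6.42 at day 3, 40.7 and 29.4 at day 6, 74.7 and 67.5 at day 7, and 22.8 and 22.9 with Gdf11. Its highest library was 26.6 times its lowest, and it was called as a peak in each. A region 302.3 kb from Cdh7, a cadherin gene (chr1:110447532-110448223), read 3.45 and 3.78 CPM at day 2, 14.2 and 12.4 at day 3, 32.8 and 32.6 at day 6, 63.8 and 71.8 at day 7, and 36.2 and 38.1 with Gdf11. Both passed all 4 comparisons, rising at each step in time and falling with Gdf11.

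As a share of a library's counts off chrM, the regions called everywhere took 64.3% ± 0.96 at day 2, 64.8% ± 2.4 at day 3, 62.3% ± 1.0 at day 6, 64.0% ± 0.41 at day 7 and 60.7% ± 1.6 with Gdf11 (SD, n = 2 each). An exact permutation test over all 945 ways to form 5 pairs gave p = 0.131 (0.179 after adjustment over 6 shares tested), where 0.00106 is the smallest possible. Without day 3, replicate 1 the p was 0.0317. The part at gene ends took 35.3% to 37.4% (exact permutation p = 0.597). The part away from gene ends took 28.9% ± 0.56 at day 2, 27.4% ± 0.07 at day 3, 25.6% ± 0.07 at day 6, 26.6% ± 0.44 at day 7 and 25.0% ± 0.02 with Gdf11 (exact permutation p = 0.00106, the smallest possible, 0.00635 after adjustment). That split was made after the data had been seen. Regions called in a single library took between 5.13% and 6.92% per group, given as a description since each was chosen by the call of 1 library.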

How the data were processed

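The data are ATAC-seq libraries, 2 for each of 5 labelled groups. Names of tools come from the submitters' processing notes, which give no order or role: HISAT2 2.1.0, HOMER 4.10, MACS2 2.1.1.20160309, SAMtools, bedtools, and the genome build mm10. The authors' count tables hold whole-number read counts for each region and list no positions. The authors' peak lists, one per library, give each peak a fold enrichment (a ratio) and, as deposited, the -log10 of its q. Merging these lists, with chromosomes in character order, gave the same number of regions as the count tables have lines, and each library had counts at all of its own peaks. The total depth per library is given above.

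Counts were tested in edgeR 4.0.16 (R 4.3.3) with quasi-likelihood F tests, two-sided, filterByExpr, TMM factors, a trended dispersion and 1 fit of all groups. The filter left 173175 regions and removed 73624. Library sizes in these fits included counts on chrM, also in the scaling by library size alone. P-values were adjusted by Benjamini-Hochberg over all tested regions. The SE of a log2 fold change is its size divided by the square root of F. The standard deviation over libraries used log2(CPM + 0.5). Single regions are named by the nearest protein-coding gene of RefSeq (GRCm38.p6), which does not show that they act on it. Promoter windows were listed for 17492 of 21887 genes, with none on chromosome 18. Calls were checked on simulated counts.

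Members and gene lists were chosen with earlier results of these data known. Regions were named by rule: the highest, widest, least variable, most changed per comparison and direction (among called regions above the members' median CPM whose groups do not overlap), most remote, and list genes by level or p. A region that this rule picks is not reported here. Alternatives were DESeq2 1.42.0, other scalings, no filter, a replicate block, each library left out, and stricter membership.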

Additional observations from a re-analysis of the deposited data

How the results depend on the processing

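Requiring a -log10 q of at least 10 in each library left 15757 regions, 58.1% of them near a gene end, and requiring peaks over 50% of the region left 18782, with 44.9%. A window of 2 kb gave 43.2%. Calls then numbered 2053 and 2077 (day 3 against day 2), 1995 and 2073 (day 6 against day 3), 311 and 269 (day 7 against day 6), 1031 and 962 (Gdf11) and 7037 and 7278 (5 groups), since fewer regions were counted. DESeq2 called 2929 at day 3, and scaling by library size alone 1211 with Gdf11. The cause was not tested.

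The replicate block gave 970 (day 7 against day 6) and 2947 (Gdf11). It gave 5595, 5837 and 16346 for day 3, day 6 and the 5 groups, within 1.5 times. The labels do not say what a shared replicate number stands for. Same-numbered libraries correlated by at most 0.03 (Pearson's r) in their deviations from group means across tested regions. Across the regions called everywhere r was 0.03 to 0.23, positive for every pair of groups but not above 0.1 for each. In each group replicate 2 also had the lower total count and the higher share on chrM. A shared effect of the replicate number was not tested.

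Leaving out 1 library gave 2843 to 3482 calls at day 3, 2779 to 3741 at day 6, 191 to 481 at day 7 and 775 to 1859 with Gdf11. The lowest came without day 2 replicate 1, day 6 replicate 1, day 6 replicate 2 and day 7 replicate 2. The spread of group means of the share of counts was 2.93 to 5.78 percentage points, the highest without day 3 replicate 1 (exact permutation p = 0.0317).

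Of 72 recalculated changes of single genes or miRNA loci (the Gdf11 falls of Kif1b, Tns1, Iqch, Emid1 and Irx4 are among those not recalculated), 7 recalculations lost the threshold (1 for Celsr3, 2 for Hoxc5 and 4 for Sf3b2) and none reversed. Regions called in 9 libraries had a median of 2.18 CPM in the library without a call, so a missing call is not an absence of counts; the part of depth in missing calls was not tested.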

Other observations

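MicroRNA loci were a small part of the regions called everywhere. Of 1005 hairpins listed by RefSeq (GRCm38.p6), 69 (6.87%) overlapped such a region and 59 (5.87%) a region called in 1 to 9 libraries. The loci below were chosen after their values were seen. The mature sequences in the RefSeq table used are shown with the seed, bases 2 to 8, in capitals, and these 4 seeds differ. The arms mmu-miR-135b-5p and mmu-miR-301b-3p are named only. The first lies at chr1:132198142-132198163 (plus strand), and the others on chromosome 16 (minus strand).
mmu-miR-135b-3p: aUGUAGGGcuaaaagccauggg
mmu-miR-130b-3p: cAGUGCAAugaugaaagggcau
mmu-miR-130b-5p: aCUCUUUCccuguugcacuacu
mmu-miR-301b-5p: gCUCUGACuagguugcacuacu

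The region at Mir135b read 10.8 and 13.0 CPM at day 2, 34.7 and 35.5 at day 3, 11.6 and 9.18 at day 6, 8.74 and 6.84 at day 7, and 8.28 and 7.44 with Gdf11. Both day 3 libraries were above all others. Its log2 fold changes in edgeR were 1.57 ± 0.21 (SE, adjusted p = 6.2e-08) at day 3 and -1.74 ± 0.21 (adjusted p = 5.3e-09) at day 6.

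Mir130b and Mir301b share 1 region. It read 6.15 and 5.13 CPM at day 2, 7.89 and 8.80 at day 3, 16.5 and 17.1 at day 6, 19.1 and 23.7 at day 7, and 10.3 and 8.44 with Gdf11. It rose by 1.01 ± 0.23 log2 units at day 6 (adjusted p = 9.5e-04), and its log2 fold change with Gdf11 was -1.18 ± 0.22 (adjusted p = 3.3e-04). Accessibility at a hairpin does not measure the mature miRNA.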
